A study of Gallus gallus with 12 samples.

Results

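Myoglobin and the slow or cardiac isoforms of the sarcomere were followed in the Pectoralis major, the white breast muscle, of 12 broilers. The genes were proposed with earlier results of these data in view, among them the difference in MB, which is therefore not independent evidence of its direction. Of the 10 genes, 8 had a row on the array that the platform annotation gives to that symbol alone: MB, MYOZ2, TNNI1, TNNC1, ACTC1, MYL2, MYL3 and MYL4. No row was named TNNT1 or TNNT2, so these troponin T genes were not analysed here. Rows were to be chosen by their mean level over the 12 arrays, the brightest one per gene, but each of the 8 genes had 1 row, so brightness chose nothing. The whole table held 20804 transcript clusters (the array's gene-level rows), of which 12300 carried a single symbol, for 11528 genes.

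All birds came from 1 flock of Ross 708 broilers, chickens bred for rapid meat growth, were labelled male and weighed 3.7 kg on average when sampled. The 6 normal birds had fillets without visible lesions, and the 6 affected birds had white striping with wooden breast, a disorder of pale stripes and a hardened fillet. No group had been given a treatment. Each bird gave 1 array, so n = 6 per group and the spread is between birds. The labels used here state neither the site of sampling within the fillet nor the age of the birds.

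Array medians lay between 4.05 and 4.16 on the log2 scale, and arrays correlated with each other at 0.941 to 0.987. The defining genes of fast skeletal fibres were high in every bird: TNNC2, TNNI2, TNNT3 and ACTA1 lay between 10.99 and 12.69. Normal birds 1, 4 and 5 went against their label. HINTW, a gene of the female W chromosome, stood at 8.51 to 9.41 in these 3 birds and at 2.46 to 2.99 in the other 9. None of the 8 genes lies on the Z or W chromosome in assembly GRCg7b. Differences without these 3 birds are given for the 8 genes and for the other named genes whose call was then lost. For further genes they are given only in part. The correlations and the ratios between paralogues were computed with all birds only.

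Muscle fibres build the same contractile machine from alternative isoforms. Fast fibres use fast troponins, light chains and skeletal actin, while slow fibres and the heart share another set and store oxygen on myoglobin. Several of the slow or cardiac isoforms, ACTC1 and MYL4 among them, are also made in embryonic skeletal muscle before the adult fast isoforms take over. The roles given below are known mainly from mammals, and those of MYOZ2 from mouse.

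Affected muscle held more MB and no other gene of the group passed the test. MB, which stores oxygen in red muscle, was 5.17-fold higher in affected birds, as a ratio of array signals. Whether the lower signals of normal birds stood above background was not tested. MYOZ2, TNNI1 and ACTC1 had differences of 1.91, 0.98 and 0.93 on the log2 scale, none past the test, and the light chains MYL2 and MYL4 lay below the median of the arrays in every bird. Of the 8 genes 1 rose and 0 fell at a limma adjusted p of 0.05, where 0.63% of all clusters were called higher and 0.514% lower. At an unadjusted p under 0.05 there were 3 of 8, MB and MYOZ2 with positive and MYL4 with negative differences, beside 22.1% of all clusters (10.6% higher and 11.5% lower). The exact permutation test also gave 3, beside 21.7% of all clusters. Of the 8 differences 5 were positive, with a median of 0.58, beside a median of -0.03 over all clusters.

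**Figure D1:**
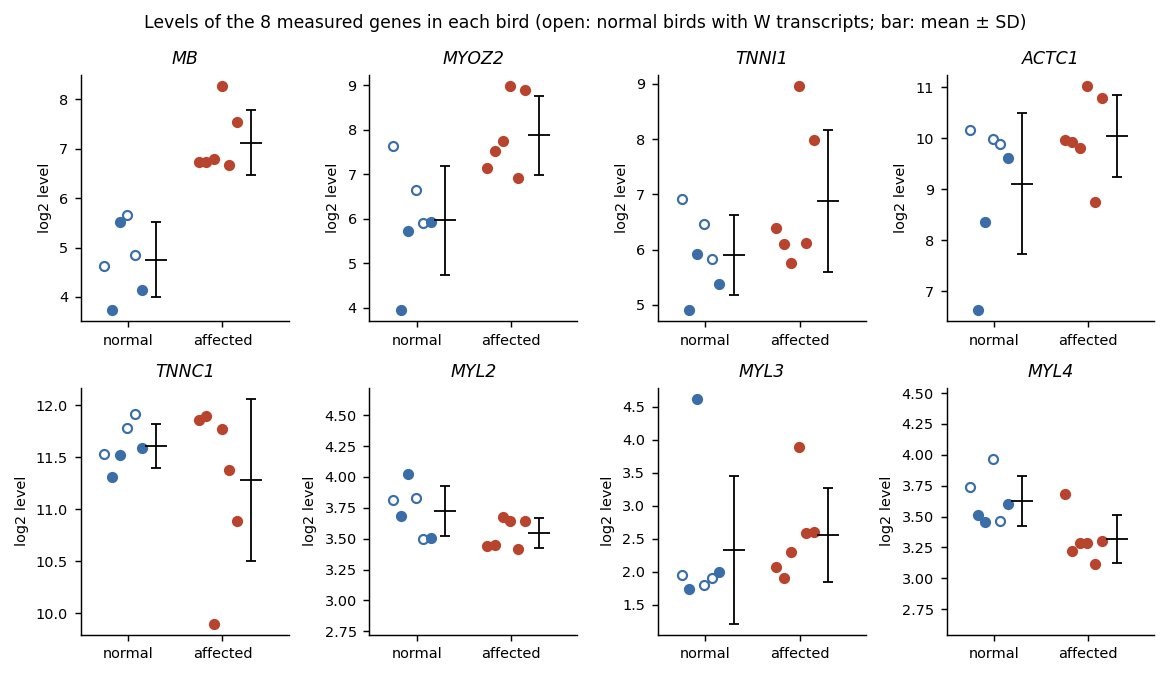
The log2 level of each of the 8 measured genes is plotted for every bird, normal birds in blue and affected birds in red, with the group mean ± SD (n = 6) as a black bar and open points for the 3 normal birds with W transcripts. MB is the 1 gene whose affected birds, from 6.68 up, all lie above the normal birds, which reach 5.66.

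In normal birds the level of MB ran from 3.73 through a median of 4.74 to 5.66, and in affected birds from 6.68 through 6.76 to 8.28. The groups did not overlap, and affected birds 4 and 6, at 8.28 and 7.55, stood above the other affected birds, which lay within 6.68 to 6.79. Such a separation upward was seen in 1 of the 8 genes and in 1.06% of all clusters, and the reverse in 0 of the 8 and in 1.11%. The fitted difference was 2.37 ± 0.36 (log2 ± SE, n = 6 per group) with a limma adjusted p of 0.0169. In a whole-muscle sample a change in the number of fibres that make a transcript and a change in transcript per fibre cannot be told apart, which holds for each gene below.

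The MB call depended on which birds entered. Without the 3 normal birds with W transcripts the difference was 2.67 at an adjusted p of 0.071, and 0.0144% of all clusters were then called higher. None of the 8 genes was called by limma in that fit, and MB, MYOZ2, TNNI1 and ACTC1 had an unadjusted p under 0.05 with positive differences, beside 9.2% of all clusters higher, 8.51% lower and 17.7% in either direction. Among the fits that left out 1 bird, the call was lost only without affected bird 6. There the difference was 2.29 at an adjusted p of 0.051, and 1 cluster passed over the whole array. Without normal bird 2 and affected bird 4 it was 1.94 at an adjusted p of 0.0616. For MB, MYOZ2, TNNI1 and ACTC1 these were the lowest normal and the highest affected bird. Leaving them out must therefore lower each of these differences, here and below.

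MYOZ2, also called calsarcin-1, ties the Z-disc of slow and cardiac fibres to the phosphatase calcineurin. Its level ran from 3.95 through 5.92 to 7.65 in normal birds and from 6.93 through 7.64 to 8.99 in affected birds. The groups overlapped: affected birds 3, 4 and 6 lay above every normal bird, and normal bird 1 reached into the affected range. The difference was 1.91 ± 0.53 with a limma adjusted p of 0.0791, and its 95% interval ran from 0.76 to 3.06. It was 2.68 (adjusted p = 0.103) without the 3 normal birds with W transcripts and 1.28 (adjusted p = 0.17) without normal bird 2 and affected bird 4.

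TNNI1 is the slow skeletal form of troponin I, the inhibitory subunit of the calcium switch on the thin filament. It lay at 4.90 to 6.91 in normal birds, median 5.88, and at 5.76 to 8.96 in affected birds, median 6.26. Affected birds 4 and 6, at 8.96 and 7.99, exceeded every normal bird, and the other 4 affected birds lay inside the normal range. The difference of 0.98 ± 0.52 did not pass (adjusted p = 0.282 in limma). Without normal bird 2 and affected bird 4 it was 0.37, and without the 3 birds with W transcripts 1.48.

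ACTC1 is the actin of the heart and of embryonic skeletal muscle. Levels ran from 6.62 through 9.75 to 10.16 in normal birds and from 8.74 through 9.94 to 11.03 in affected birds. Normal bird 2 was the lowest of all 12, and the highest affected birds were again 4 and 6, at 11.03 and 10.78, while the other 4 overlapped the normal birds. The difference was 0.93 ± 0.57 (adjusted p = 0.344 in limma), with a 95% interval of -0.29 to 2.15.

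For ACTC1 the normal birds themselves split by their W transcripts. The 3 birds with W transcripts lay at 9.89 to 10.16 and the other 3 at 6.62 to 9.61, with no overlap. The affected minus normal difference was 1.84 (adjusted p = 0.181) when the 3 were left out. It was 0.24 when normal bird 2 and affected bird 4 were left out instead. For MYOZ2 the birds with W transcripts lay at 5.91 to 7.65 against 3.95 to 5.93, and for TNNI1 at 5.83 to 6.91 against 4.90 to 5.92, so for both genes these ranges overlapped slightly. These ranges also overlapped for MB, TNNC1, MYL2, MYL3 and MYL4, so ACTC1 alone of the 8 genes separated. The share of all clusters that separate the same birds was not counted. With 3 birds on each side no test of this split was made, and the ACTC1 separation is a description.

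TNNC1 is the calcium-binding troponin C of slow and cardiac fibres. Its level lay at 11.3 to 11.9 in normal birds and at 9.90 to 11.9 in affected birds. The fast TNNC2 lay at 11.7 to 11.9 in normal birds, so the TNNC1 signal was nearly as bright in this white muscle. Affected birds 3 and 6, at 9.90 and 10.9, fell below every normal bird, and the other 4 affected birds overlapped them. The difference was -0.33 ± 0.29 (adjusted p = 0.526 in limma). Without affected bird 3 it was -0.05, and without the 3 birds with W transcripts -0.19. The spread of TNNC1 was 0.21 (SD) in normal and 0.78 in affected birds.

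Among the myosin light chains, MYL2, the regulatory light chain of slow fibres and the ventricle, lay at 3.50 to 4.03 in normal and 3.42 to 3.67 in affected birds. MYL4, the essential light chain of atrium and embryonic muscle, lay at 3.45 to 3.97 and 3.12 to 3.69. Both stayed below the median of the arrays, 4.05 to 4.16, in every bird, and whether they stood above background was not tested.

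Their differences were -0.18 ± 0.10 for MYL2 (adjusted p = 0.299 in limma) and -0.31 ± 0.11 for MYL4 (adjusted p = 0.137), and -0.19 and -0.21 without the 3 birds with W transcripts. MYL3, the essential light chain of slow fibres and the ventricle, read 1.74 to 2.60 in 10 birds, 4.61 in normal bird 3 and 3.89 in affected bird 4. Only normal bird 3 exceeded the median of the arrays for MYL3, and whether the others stood above background was not tested. The MYL3 difference of 0.22 ± 0.47 (limma adjusted p = 0.811) changed sign without affected bird 4, to -0.045, and without the 3 birds with W transcripts, to -0.22.

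The second question was whether the genes were high in the same birds. Affected birds 4 and 6 lay above every normal bird for 4 of the 8 genes each, MB, MYOZ2, TNNI1 and ACTC1. Affected bird 3 did so for 2, and affected birds 1, 2 and 5 for MB alone. The share of all clusters in which each of these birds lay above every normal bird was not counted, so these counts are a description. Among normal birds, bird 2 was the lowest for all 4 of these genes, at 3.73 for MB, 3.95 for MYOZ2, 4.90 for TNNI1 and 6.62 for ACTC1. Affected birds 4 and 6 as the highest affected birds, with normal bird 2 as the lowest normal bird, was a pattern of 5 of the 8 genes, MYL3 being the fifth, and of 4.73% of all clusters. These birds were picked out after their values were seen, so the count is a description. MYL3 entered it by a narrow margin, with affected bird 6 at 2.595 and affected bird 5 at 2.58, both below the median of the arrays.

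**Figure D2:**
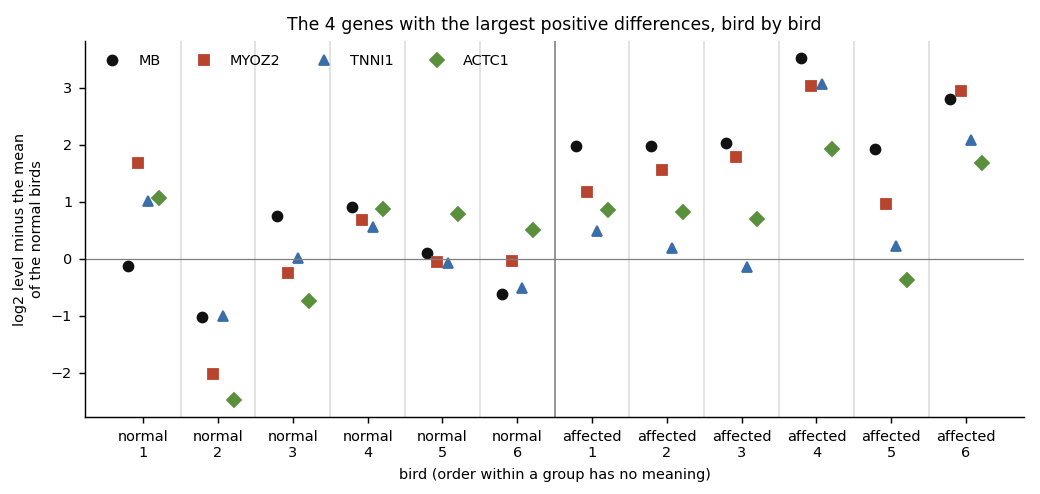
Each point is the log2 level of MB, MYOZ2, TNNI1 or ACTC1 in 1 bird minus the mean of the 6 normal birds for that gene, with birds along the horizontal axis. All 4 genes are lowest among the normal birds in bird 2, and in affected birds 4 and 6 all 4 lie between 1.68 and 3.52 above the normal mean.

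Within the 6 affected birds the relation of MYOZ2 with MB passed by Pearson's r only. This r was 0.91 (exact permutation p = 0.00278, Benjamini-Hochberg adjusted p = 0.0389 over 14 relations, which are the 7 other measured genes in each group). Adjusted over the 56 relations of all pairs in both groups, its p was 0.0778 and did not pass. Spearman's rho was 0.94 (exact permutation p = 0.0167, adjusted p = 0.233), so the rank coefficient did not pass. With affected birds 4 and 6 left out, the 2 birds farthest from the median of MB, r was 0.89 over the other 4. These 4 lay within 6.68 to 6.79 for MB, too narrow a range for that r to show whether MYOZ2 followed MB. The coefficients with MB over all 6 affected birds therefore rest largely on birds 4 and 6. Affected birds 4 and 6 held the 2 highest affected values in 10.1% of all clusters. The share of all clusters with coefficients this high with MB within a group was not counted. Whether MYOZ2 or the genes below stand out from other genes in this respect was therefore not tested.

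ACTC1 and TNNI1 had high coefficients in affected birds that did not pass the adjustment. For ACTC1 r was 0.83 (exact permutation p = 0.0264, adjusted p = 0.136) and rho 0.83 (p = 0.0583, adjusted p = 0.408), with r = 0.71 after birds 4 and 6 were left out. For TNNI1 r was 0.97 (exact permutation p = 0.0292, adjusted p = 0.136) and rho 0.60 (p = 0.242, adjusted p = 0.553). Without birds 4 and 6 the r of TNNI1 was -0.60. The other 4 birds lay within 6.68 to 6.79 for MB, too narrow a range for either r among them to show a relation. For MYL3 r was 0.90 with all 6 affected birds (exact permutation p = 0.0389, adjusted p = 0.136) and rho 0.66 (p = 0.175, adjusted p = 0.49). Without birds 4 and 6 its r was -0.34, with the same limit. MYL3 lay below the median of the arrays in every affected bird, and whether it stood above background was not tested. MYL2, MYL4 and TNNC1 had unadjusted exact permutation p of 0.247, 0.885 and 0.781.

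**Figure D3:**
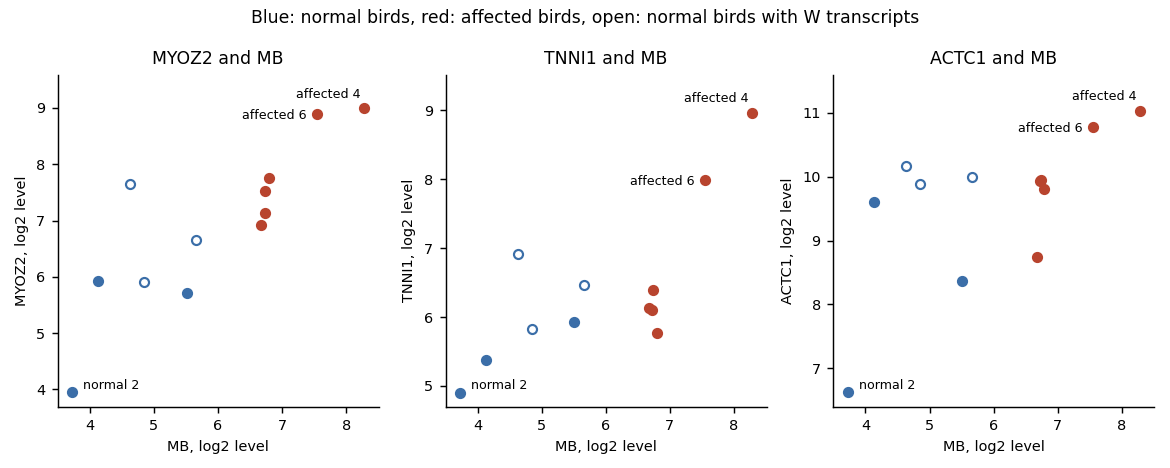
The log2 levels of MYOZ2, TNNI1 and ACTC1 are plotted against that of MB, 1 point per bird, with normal birds in blue, affected birds in red and open points for the 3 normal birds with W transcripts. In each panel affected birds 4 and 6 lie at the upper right and normal bird 2 at the lower left.

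Within the 6 normal birds the coefficients with MB were all positive but none passed. Pearson's r ran from 0.37 for MYL4 to 0.64 for TNNI1, and the smallest exact permutation p was 0.174 (adjusted p = 0.447). For MYOZ2 r was 0.50 (exact permutation p = 0.314, rho 0.31, p = 0.564) and for ACTC1 0.47 (p = 0.324, rho 0.43, p = 0.419). Without normal birds 2 and 4, the farthest from the median of MB, these became -0.27 and -0.71. Between MYOZ2 and ACTC1, a relation outside the planned family, r in normal birds was 0.90 and rho 0.94 (exact permutation p = 0.00278 and 0.0167). Adjusted over the 56 relations of all pairs in both groups these were 0.0778 and 0.467. Without normal birds 2 and 3, the farthest from the median of ACTC1, the r of MYOZ2 with ACTC1 was 0.86. Each group held 6 birds, so the smallest p that 720 arrangements can give is 0.00139.

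Fast counterparts of these genes showed small differences. MYOZ1 differed by -0.02 ± 0.09 (log2 ± SE), ACTA1 by 0.03 ± 0.07, TNNC2 by -0.02 ± 0.07 and TNNT3, the fast troponin T, by -0.07 ± 0.06, with limma adjusted p from 0.544 to 0.914. TNNI2, the fast troponin I, lay at 11.32 to 11.50 in normal birds and at 10.99 to 11.34 in affected birds, a difference of -0.20 ± 0.07 (adjusted p = 0.149). The 95% intervals of these 5 genes lay within -0.36 to 0.17. Without the 3 birds with W transcripts the differences were -0.09 for MYOZ1, -0.02 for ACTA1, -0.08 for TNNC2, -0.08 for TNNT3 and -0.23 for TNNI2.

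Unequal change within pairs was tested on the log2 ratio of slow or cardiac to fast gene in each bird. The ratio of MYOZ2 to MYOZ1 was 1.93 higher in affected birds (exact permutation p = 0.0173, adjusted over 4 pairs 0.0693). For TNNI1 to TNNI2 it was 1.18 (p = 0.102, adjusted 0.203), for ACTC1 to ACTA1 0.91 (p = 0.221, adjusted 0.294) and for TNNC1 to TNNC2 -0.30 (p = 0.426, adjusted 0.426), by the same exact permutation test. None of the 4 passed, and in each pair the ratios of affected and normal birds overlapped. Whether a cluster also captures its paralogue's transcript was not tested.

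**Figure D4:**
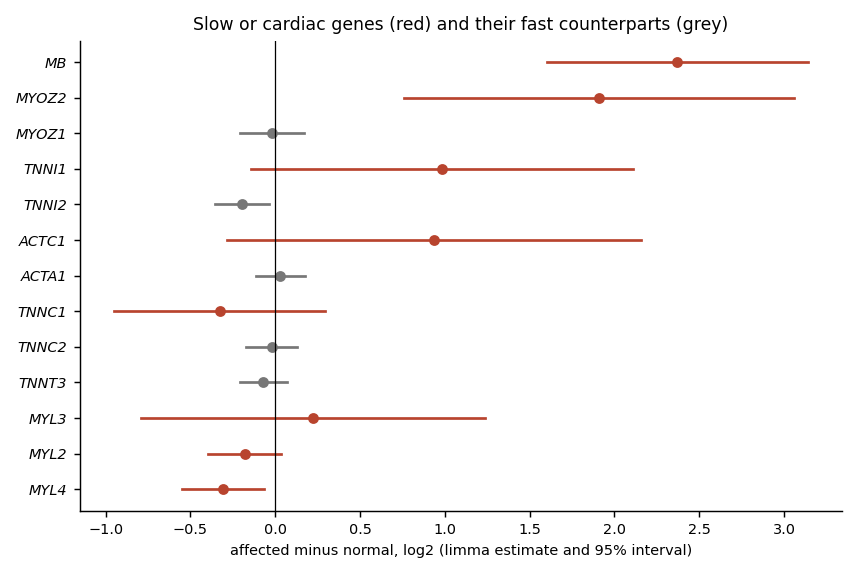
Points are limma's estimates of the affected minus normal difference on the log2 scale and lines their 95% intervals (n = 6 per group), in red for the slow or cardiac genes and in grey for fast counterparts. The interval of MB runs from 1.60 to 3.14, while the 5 fast counterparts lie within -0.36 to 0.17.

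The fast fibre list as a whole, with 13 of 19 genes measured, had 1 called higher and 0 lower. For this list and those below, the shares over all clusters were 0.63% called higher and 0.514% lower. The called gene was MYH1G, a fast myosin heavy chain of the chicken, at 2.30 ± 0.43 (limma adjusted p = 0.0379). Without the 3 birds with W transcripts it was 2.27 (adjusted p = 0.13), and the call was also lost in 6 of the 12 fits that left out 1 bird. At an unadjusted p under 0.05 there were 5 of 13, 3 higher and 2 lower, beside 10.6% of all clusters higher and 11.5% lower. The higher ones were MYH1G, MYH1C (1.25 ± 0.30, limma adjusted p = 0.0601) and MYH1B (1.21 ± 0.42, 0.128). The lower ones were TNNI2 and MYH1E (-0.29 ± 0.10, limma adjusted p = 0.116). MYH1C was the 1 gene of the list whose affected birds all lay above the normal birds, beside 1.06% of all clusters. The list's median difference was -0.02 and its mean 0.41. Without the 3 birds with W transcripts the median was -0.08, and after quantile normalization the median was 0.05.

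Other slow or cardiac genes were described by a list with 22 of 32 genes measured. One rose, CSRP3, a Z-disc protein that answers to mechanical load, at 3.30 ± 0.50 (limma adjusted p = 0.0175), and 0 fell. Its call was lost without affected bird 6 (adjusted p = 0.051) and without normal bird 2 and affected bird 4 (0.0616). Bird 2 again held the lowest normal level and bird 4 the highest affected level, so their removal must lower the CSRP3 difference. Without the 3 birds with W transcripts the call was lost too, at a difference of 3.79 (adjusted p = 0.0749). At an unadjusted p under 0.05 there were 11 of the 22, 10 higher and 1 lower, beside 10.6% of all clusters higher and 11.5% lower. The median difference was 0.31, with 12 of 22 positive, beside 43.9% positive over all clusters. Affected birds 4 and 6 were the highest affected birds, with normal bird 2 the lowest normal bird, for 7 of the 22. The same pattern held for 7 of 14 genes of developing and regenerating muscle, 3 of 13 fast fibre genes and 1 of 24 regulators, beside the 4.73% of all clusters given above.

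Regulators of the slow programme did not pass. The 24 measured members include NFAT factors, MEF2 factors, calcineurin subunits and PPARGC1A, and limma called 0 at an adjusted p of 0.05. At an unadjusted p under 0.05 there were 5 of 24, beside 22.1% of all clusters. The exact permutation test gave 4, beside 21.7% of all clusters. The smallest p belonged to NFATC3, a calcineurin-dependent transcription factor, which stood at 7.02 ± 0.29 (SD, n = 6) in normal and 7.51 ± 0.14 in affected birds. Its difference was 0.50 ± 0.13 (adjusted p = 0.063 in limma). Without the 3 birds with W transcripts it was 0.36. The list's median difference was 0.02, and -0.03 without those birds.

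Genes of developing and regenerating muscle held 14 measured members of 22, of which 2 rose and 0 fell. MUSK, the receptor kinase of the neuromuscular junction, was higher by 0.60 ± 0.11 (limma adjusted p = 0.0317) and CHRND, a subunit of the acetylcholine receptor, by 0.76 ± 0.17 (adjusted p = 0.0471). Neither passed without the 3 birds with W transcripts, at differences of 0.72 and 0.88 (limma adjusted p = 0.0749 and 0.119). Their calls were also lost in 5 and 10 of the 12 fits that left out 1 bird. At an unadjusted p under 0.05 there were 4 of 14, all higher, beside 10.6% of all clusters higher and 11.5% lower. The median difference of the list was 0.23, and 0.53 without the 3 birds with W transcripts.

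Globins other than MB were not called by limma (0 of 6 measured, 1 at an unadjusted p under 0.05, 0 by the exact permutation test). Here and for the marker lists below, the shares over all clusters were 22.1% at an unadjusted p under 0.05 and 21.7% by the exact permutation test. HBAD, an alpha-type haemoglobin chain of red blood cells, had the smallest p, with a difference of 0.64 ± 0.29 (adjusted p = 0.218). Of the erythroid markers 5 of 11 were measured, and their mean level ran from 4.33 to 4.84 in normal and from 4.36 to 5.22 in affected birds. By limma 0 were called and 2 had an unadjusted p under 0.05, HBAD higher and TAL1 lower (-0.27 ± 0.12). The exact permutation test gave 0.

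Of 11 markers of heart muscle cells 6 were measured, and limma called 0 (1 at an unadjusted p under 0.05, 0 by the exact permutation test). Among them NKX2-5, GATA4, TBX5, TBX20 and RYR2 lay between 2.26 and 3.79 in every bird. MYBPC3, the cardiac myosin-binding protein C, lay at 5.10 to 7.02 in normal and 6.31 to 8.55 in affected birds (difference 0.998 ± 0.46, limma adjusted p = 0.22). 

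Fibroblast markers had the same highest and lowest birds. Of 7 listed 5 were measured, and limma called 0 of them. All 5 had an unadjusted p under 0.05 by limma (22.1% of all clusters) and by the exact permutation test (21.7%). Their mean level was 6.40 in normal bird 2, 6.40 to 8.80 over the normal birds and 8.41 to 10.2 over the affected birds, and 4 of the 5 had affected birds 4 and 6 highest and normal bird 2 lowest. Their median difference was 1.19, beside 2.37 for MB, 1.91 for MYOZ2, 0.98 for TNNI1 and 0.93 for ACTC1. Without the 3 birds with W transcripts this median was 1.67, beside 2.67, 2.68, 1.48 and 1.84 for the same genes. Macrophage markers (4 of 7 measured, 0 called, 1 at an unadjusted p under 0.05 and 1 by the exact permutation test) had a mean level of 5.09 to 6.40 in normal and 5.82 to 7.03 in affected birds, again lowest in normal bird 2, and a median difference of 0.54. The part of these cells in the levels of MB, MYOZ2, TNNI1 and ACTC1 was not tested. Among the other marker lists, median differences were 0.27 for adipocyte, 0.07 for satellite cell, 0.04 for smooth muscle and -0.03 for endothelial markers, with 0 called, 1 at an unadjusted p under 0.05 (adipocyte) and 1 by the exact permutation test. Of 10 skeletal muscle fibre markers 4 were measured, the ACTA1, TNNT3, TNNI2 and TNNC2 given above. Limma called 0 of these, and 1, TNNI2, was lower at an unadjusted p under 0.05 by limma and by exact permutation.

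The genes most like MB were taken by Pearson's r over the 12 birds, among genes with a single symbol, as a description that includes the difference between groups. They were CSRP3 at 0.97, SPTBN1 (a spectrin of the membrane skeleton) at 0.94, HMOX1 (which degrades haem) at 0.92, SOAT1 (a cholesterol-esterifying enzyme) at 0.92 and CAST (the inhibitor of calpains) at 0.91. With the group means removed, r with MB was 0.88 for CSRP3 and 0.73 to 0.82 for the other 4. SPTBN1, HMOX1 and CAST were called higher with all birds, at limma adjusted p of 0.0389, 0.0499 and 0.0460, beside 0.63% of all clusters. MB separated the groups, so genes chosen for a high r with it over the same birds must tend to differ between them. The calls of CSRP3, SPTBN1, HMOX1 and CAST are therefore no separate evidence. Those of SPTBN1, HMOX1 and CAST were lost without the normal birds with W transcripts, at differences of 0.59, 0.77 and 0.86. Their limma adjusted p was then 0.086, 0.124 and 0.11. Over the 12 birds, MYOZ2 correlated with MB at 0.84, with 128 genes above it, and TNNI1 at 0.74, with 567 above. ACTC1 stood at 0.61 and MYL3 at 0.41 on the same measure, while TNNC1, MYL2 and MYL4 were at -0.17, -0.20 and -0.51. With the group means removed, r was 0.79 for TNNI1, 0.66 for MYOZ2, 0.63 for MYL3, 0.61 for MYL2, 0.58 for ACTC1, 0.20 for TNNC1 and 0.16 for MYL4, so the signs of TNNC1, MYL2 and MYL4 turned.

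**Figure D5:**
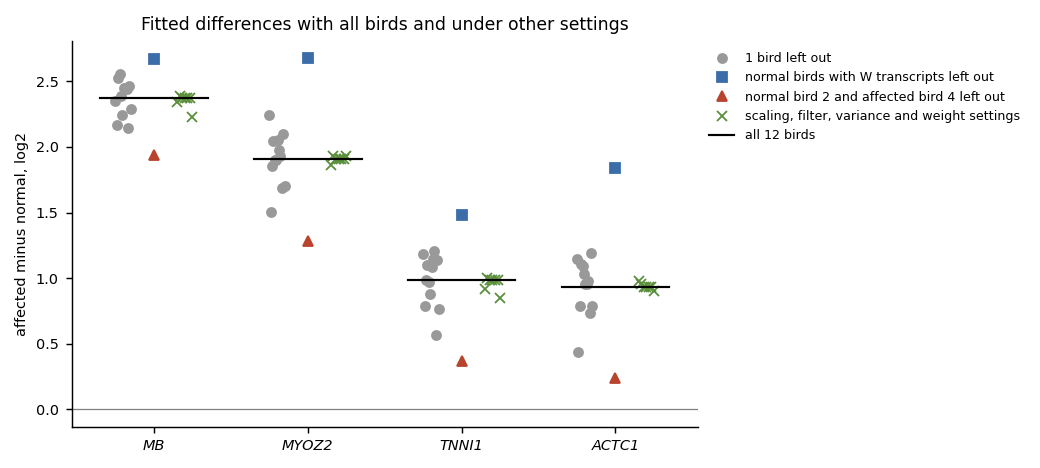
The fitted affected minus normal difference (log2) of MB, MYOZ2, TNNI1 and ACTC1 is shown with all 12 birds as a black line and under other settings as points. All points lie above 0, and leaving out normal bird 2 and affected bird 4 gives the lowest values, from 1.94 for MB to 0.24 for ACTC1. These were the lowest normal and the highest affected bird for all 4 genes, so their removal must lower each difference.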

How the data were processed

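Total RNA (150 ng per bird) was labelled with a whole-transcript kit and hybridised to Affymetrix arrays (labels' protocols). Partek is named, per the submitters' processing notes, without a role, and no source used here states how probes were summarized and scaled. Per cluster the authors deposited 1 log2 value, the log base being inferred from the range of 1.04 to 12.89. Genes were named from the platform annotation, and GRCg7b served only for Z or W linkage.

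Groups came from the phenotype label, and replicate numbers follow deposition order. Affected minus normal differences were fitted over all 20804 clusters with limma 3.58.1 in R 4.3.3 (lmFit, eBayes, prior degrees of freedom 3.39, residual 10), with Benjamini-Hochberg adjustment over all clusters. The fit was tested on simulated data. Correlations and paralogue ratios used exact two-sided permutation (720 and 924 arrangements). The number of arrays limits the precision.

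The members and lists were chosen with earlier results of these data known. Named are all members, the fast paralogues, up to 4 called genes of each of 5 lists or otherwise the 1 with the smallest p, and the 5 genes most like MB. Others were named after their values were seen. Other settings changed the scaling (quantile or median), the filter on dim clusters, the variance model, array weights, a HINTW covariate or the birds entered. Averaging the rows of a gene changed nothing, since each member had 1 row. Correlations were planned for 9 other members, of which 7 were measured. No sequence is printed, since none was used here. Figures were drawn with matplotlib 3.10.9.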

Additional observations from a re-analysis of the deposited data

Results flagged for a closer look

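In the 16 groups examined, 8 genes in normal and in affected birds, 3 birds stood apart from the other 5 of their group for 1 gene by Dixon's criterion, and chance alone gives about 1 in 20. MYL3 was at 4.61 in normal bird 3, where the gap to the next bird was 0.909 of the group's range. MYL3 was at 3.89 in affected bird 4, with a gap of 0.655 of the range. MYL4 was at 3.69 in affected bird 1, with a gap of 0.669 of the range.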

How the results depend on the processing

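Over all clusters 238 passed with all birds, 384 and 455 with clusters above the lower quartile or the median only, 9 with HINTW as a covariate, 3 without the normal birds with W transcripts, 1 without normal bird 2 and affected bird 4, and 1 (without affected bird 6) to 588 (without affected bird 1) when 1 bird was left out. The count of the 8 genes called higher was 1 and became 0 with the covariate, without the birds with W transcripts, without normal bird 2 and affected bird 4, and, among fits without 1 bird (0 to 1), without affected bird 6. HINTW nearly marks the 3 birds, so the covariate is no separate check. MB kept its sign in every setting, from 1.94 to 2.71. The median of the 8 differences ran from 0.04, without normal bird 2 and affected bird 4, to 0.73. The setting at the low end takes out the lowest normal and the highest affected bird for MB, MYOZ2, TNNI1 and ACTC1. The filters on dim clusters drop light chain genes and give no such median. Signs changed only for small differences. MYL3 was at -0.0018 with array weights, -0.27 with the covariate, -0.22 without the birds with W transcripts, -0.16 without normal bird 2 and affected bird 4, and -0.045 to 0.68 without 1 bird. ACTA1 was at -0.013 with the covariate, -0.017 without the birds with W transcripts and -0.015 to 0.046 without 1 bird. After quantile normalization TNNC2, TNNT3 and MYOZ1 were at 0.050, 0.011 and 0.10. Without normal bird 2 and affected bird 4, TNNC2 and MYOZ1 were at 0.0073 and 0.028, and without 1 bird at -0.050 to 0.0010 and -0.081 to 0.0085. Of the 14 relations with MB, 1 passed by Pearson's r, 2 after quantile normalization and 0 by Spearman's rho. The cause of these changes was not tested.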

Other observations

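Several other sarcomere genes of the slow or cardiac list, named after their values were seen, had the same highest and lowest birds as MB. MYH15, the ventricular myosin heavy chain of the chicken, was at 7.97 and 6.82 in affected birds 4 and 6, at 3.36 to 5.57 in the other affected birds and at 2.95 in normal bird 2. MYOM3, a protein of the M-band, was at 8.36 and 7.54 in affected birds 4 and 6, at 5.21 to 5.79 in the other affected birds and at 3.13 in normal bird 2. LMOD2, which promotes the growth of thin filaments, was at 8.22 and 7.48, at 5.63 to 6.50 and at 3.85. Normal bird 1 reached 6.02 for MYH15, 6.07 for MYOM3 and 5.83 for LMOD2, so the groups overlapped for each gene. Neither MYH15 (limma adjusted p = 0.273), MYOM3 (0.124) nor LMOD2 (0.079) passed between the groups. The pattern of highest and lowest birds held for 7 of the 22 measured genes of that list, and 12 of the 22 had positive differences.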
